A study of Mus musculus with 4 samples.

Results

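Pitx1 and 5 T-box genes of later mesoderm (Tbx2, Tbx3, Tbx4, Tbx5 and Tbx20) were followed in mouse embryonic stem cells that differentiated after withdrawal of the cytokine LIF. The set was selected on the FPKM of these same libraries, with the difference between the days in view, and every transcript row that maps to 1 of the 6 symbols was taken, which gave 10 rows for 6 of the 26994 gene symbols in the tables. The cells were CJ9 embryonic stem cells of strain 129S4/SvJae, wild type in genotype and titled as carrying Cas9 only, so that Cas9 is shared by all of them. By their titles, 2 libraries come from day 4 and 2 from day 6, and the titles do not state from what the days are counted. The culture text in the labels gives 2 and 6 days without LIF for day 4 replicates 1 and 2. It gives 4 and 6 days for day 6 replicates 1 and 2. If the titled days are read as days without LIF, the culture text disagrees with them for 3 of the 4. The labels do not state that replicates are separate cultures, and the p-values below measure only the spread between libraries, which may be technical. The series asks how loss of the Evx1as/Evx1 locus changes this differentiation. Cells with that deletion were not analysed here, and the comparison available is day 6 against day 4.

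T-box proteins are transcription factors that share a DNA-binding domain, the T-box. T (Brachyury) and Eomes act early, in the primitive streak, the site where mesoderm forms. Tbx2 and Tbx3 are mostly repressors, with roles in heart chamber patterning and limbs, and Tbx3 is also expressed in embryonic stem cells, where it takes part in self-renewal. Tbx5 acts in the heart and forelimb, Tbx4 in the hindlimb, lung and allantois (the extraembryonic mesoderm that links embryo and placenta), and Tbx20 in the heart and lateral mesoderm. Pitx1 is a paired-type homeodomain factor of the hindlimb and pituitary that lies upstream of Tbx4 in the hindlimb.

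Levels are FPKM (fragments counted per kilobase of transcript and per 1000000 mapped fragments), summed over the rows of a gene. The deposited intervals have widths that imply near 3670000 and 3570000 mapped fragments for the day 4 pair and 6370000 and 5650000 for the day 6 pair, so low genes are measured less precisely at day 4. The day 4 libraries lay further apart than the day 6 libraries: the median absolute difference of a gene between replicates was 1.07 log2 units at day 4 and 0.19 at day 6. The gap at day 4 moved with base composition. The median log2 gap, replicate 2 minus replicate 1, was -1.51 for genes of 40 to 45% GC and 1.498 for genes of 60 to 65% GC. Differences between days are means of log2(FPKM + 1), and the median difference over the 11716 genes tested was 0.51.

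Transcript rows of Tbx3 and Tbx4 differ in exons that can be read directly, and they are shown first because the libraries differ in which row carries the signal. In the GENCODE M21 models linked to the 2 Tbx3 rows, NM_011535 keeps a coding exon of 60 bases that NM_198052 skips, at chr5:119675243-119675302 on the plus strand of GRCm38 (mm10). The rows also differ in their start, at 119671233 for NM_011535 and 119670862 for NM_198052. The model linked to NM_011535 has 4856 exon bases, whereas the row is listed with a length of 4641. The exon is printed in capitals below, with 30 bases of each neighbouring exon in lower case, and the second line gives the same junction without it. 
NM_011535: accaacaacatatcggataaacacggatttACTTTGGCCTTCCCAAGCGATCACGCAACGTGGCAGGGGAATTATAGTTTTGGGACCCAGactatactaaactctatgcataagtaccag
NM_198052: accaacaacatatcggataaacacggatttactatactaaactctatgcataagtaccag

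The 2 Tbx4 rows differ at their 5′ end. NM_011536 starts at position 85890063 of chromosome 11 and opens with 2 exons of its own, of 201 and 95 bases, both wholly coding in GENCODE. NM_172798 starts at 85896765 with a noncoding exon of 246 bases of its own. The RefSeq promoter table (GRCm38.p6) held a start for 2 of the 6 genes, that of the Tbx4 row NM_172798 and that of Tbx20, and the 250 bases before each start are shown, since the Tbx4 start is that of the row that carried the day 4 signal, while the 3 Tbx20 rows share theirs. Capitals mark TTTATA, the reverse complement of TATAAA (the TATA box sequence), in the Tbx4 window at chr11:85896515-85896764 (plus strand), and CG dinucleotides in the Tbx20 window at chr9:24774304-24774553 (minus strand). The Tbx4 match thus reads as TATAAA only on the strand opposite to the gene, and its use as a promoter element was not tested. 
Tbx4, NM_172798: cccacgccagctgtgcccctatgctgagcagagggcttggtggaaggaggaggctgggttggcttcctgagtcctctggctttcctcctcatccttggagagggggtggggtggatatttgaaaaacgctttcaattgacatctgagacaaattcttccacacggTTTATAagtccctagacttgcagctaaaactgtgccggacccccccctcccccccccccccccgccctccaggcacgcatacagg
Tbx20: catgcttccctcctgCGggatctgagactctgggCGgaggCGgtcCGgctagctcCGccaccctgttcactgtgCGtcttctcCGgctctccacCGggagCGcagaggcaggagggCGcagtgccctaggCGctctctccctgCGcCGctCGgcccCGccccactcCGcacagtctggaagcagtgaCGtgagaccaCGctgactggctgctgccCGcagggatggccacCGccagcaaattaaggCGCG

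The Tbx20 window held 22 CG dinucleotides and the Tbx4 window 6, against a median of 6 over the 32851 windows of the same length in the table. TATAAA, read on both strands, was in 12.4% of those windows. Neither window held AGGTGT, the core of the T-box element, or AGATAA, to which Gata factors bind, on either strand. These 2 motifs were in 11.8 and 9.99% of all windows, and each motif was counted whether or not it overlapped another. A missing match says only that these letters are not in the window.

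Of the 6 genes, Pitx1, Tbx2, Tbx4 and Tbx20 had each day 6 library above each day 4 library, whereas the days overlapped for Tbx3 and Tbx5. Of the 11716 genes tested, the same was true of 41.6%, with 11.5% lower without overlap, and nothing is read from the count, because the set was chosen with this contrast known. For the same reason the differences of the 6 genes are given as a description, with no test. In these bulk samples, more cells of a type and more RNA per cell cannot be told apart. When each library was centred on its own median, the shares over all genes were 20.3% higher and 26.4% lower. They were 23.1 and 25% after quantile normalisation, and 28.1 and 27.3% of 11370 genes after a correction for GC content. The count of members higher without overlap was 4 under each of these, and Tbx5 was not in them.

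**Figure D1:**
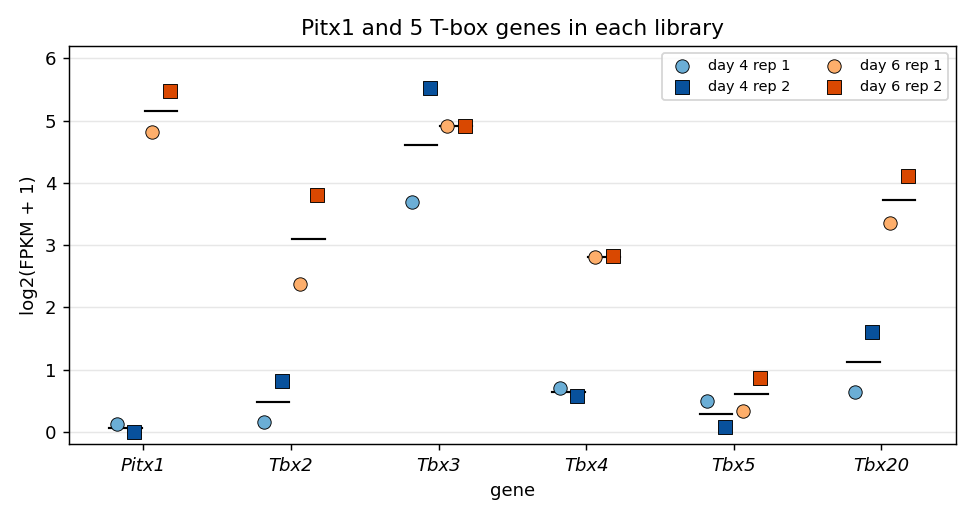
Level of each gene on the log2(FPKM + 1) scale in each of the 4 libraries (circles, replicate 1; squares, replicate 2; blue, day 4; orange, day 6), with a bar at the mean of each day. Pitx1, Tbx2, Tbx4 and Tbx20 have both day 6 points above both day 4 points, and the Tbx3 points of day 6 lie between those of day 4.

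Pitx1 (NM_011097, minus strand of chromosome 13, 55825054 to 55831425) was at the edge of detection at day 4 and well above it at day 6. It measured 0.0853 FPKM in day 4 replicate 1 (deposited interval 0 to 0.240, a width that corresponds to about 1 fragment) and was listed at 0 in day 4 replicate 2. In day 6 replicates 1 and 2 it measured 27.3 FPKM (23.9 to 29.3) and 43.5 FPKM (38.5 to 47.1), on about 418 and 410 fragments. The lowest day 6 lower bound was 99.8 times the highest day 4 upper bound. The mean difference was 5.09 on the log2(FPKM + 1) scale, larger than that of 99.9% of genes tested, and it ranged from 4.765 to 5.42 with any 1 library left out. By level, Pitx1 stood above 76.4 and 85.5% of genes tested in day 6 replicates 1 and 2. The Pitx1 row has 65.8% GC. Pitx3, a related factor of lens and midbrain neurons, was listed at 0 in 3 libraries and at 0.0824 FPKM in day 6 replicate 1.

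Tbx2 and Tbx4 are neighbours on the plus strand of chromosome 11, with 48115 bases between the end of Tbx2 (85832615 to 85841948) and the first start of Tbx4 in the tables. Tbx2 measured 0.115 FPKM (0 to 0.275) and 0.756 FPKM (0.388 to 1.11) at day 4, on about 2 and 18 fragments. At day 6 it measured 4.17 FPKM (3.45 to 4.89) and 13.0 FPKM (11.4 to 14.5). The days did not overlap, and the day 6 libraries differed from each other by more than their intervals, replicate 2 being 3.13 times replicate 1. The mean log2 difference was 2.61, and it was 1.89 without day 6 replicate 2 and 3.33 without day 6 replicate 1. The transcript that starts 227 bases from Tbx2 on the other strand, 2610027K06Rik, stayed between 0.180 and 0.548 FPKM in all 4 libraries.

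Tbx4 was the member whose replicates lay closest together over both days, with a pooled SD of 0.06 log2 units. It measured 0.628 and 0.494 FPKM at day 4 against 6.00 and 6.09 FPKM at day 6. Every library of day 6 was thus above every library of day 4, with a mean log2 difference of 2.17 and a range of 2.11 to 2.24 with any 1 library left out. The signal sat in different rows on the 2 days. At day 4, NM_172798, the row with the TTTATA window, had 0.625 FPKM (0.209 to 1.05) and 0.492 FPKM (0.0706 to 0.847), which corresponds to about 9 and 6 fragments and makes 99.6% of the gene in each library. At day 6 NM_011536, which starts upstream of it, had 6.00 FPKM (5.04 to 6.95) and 6.09 FPKM (5.08 to 7.10), on about 159 and 146 fragments. NM_172798 was then at 0.000113 and 0.000453 FPKM, with upper bounds of 0.0718 and 0.0821 FPKM. Reads in the exons the 2 rows share cannot tell them apart, and the assignment at day 4 rests on few fragments.

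Tbx20 (minus strand of chromosome 9, 24720812 to 24774303) measured 0.561 and 2.03 FPKM at day 4 against 9.20 and 16.2 FPKM at day 6. Both day 6 libraries were above both day 4 libraries, and the mean log2 difference was 2.61. It was 2.13 without day 4 replicate 1 and 3.09 without day 4 replicate 2. The long row NM_194263, which has 2 exons at its 3′ end that the short rows lack, held all of the signal in day 4 replicate 1, at 0.561 FPKM (0.280 to 0.810). The short row NM_001205085 held all of it in day 4 replicate 2, at 2.03 FPKM (0.939 to 3.13). These 2 values correspond to about 18 and 14 fragments, and reads in exons that the rows share cannot tell them apart. The model linked to the long row has 9091 exon bases, whereas the row is listed with a length of 6436. At day 6 both rows were present, the long row at 2.69 and 6.94 FPKM, or 29.3 and 42.8% of the gene, and the short row at 6.50 and 9.27 FPKM. The remaining row, NM_020496, which spans the same positions as the short row, was at or under 1.7e-05 FPKM in every library.

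Tbx3 and Tbx5 lie on the plus strand of chromosome 5, at 119670862 to 119684724 and 119834663 to 119885218. Tbx3 was the most abundant of the 6 genes in 3 libraries and was second to Pitx1 in day 6 replicate 2. It measured 11.9 and 45.04 FPKM at day 4 against 29.3 and 29.2 FPKM at day 6. The 2 day 6 values were nearly equal and lay between the day 4 values, so no direction could be given. The mean log2 difference was 0.31. It was 1.23 without day 4 replicate 2 and -0.61 without day 4 replicate 1, and it was -0.31 after each library was centred on its median and -0.30 after a correction for GC content. Tbx3 has 52.8% GC, and its day 4 libraries lay 1.84 log2 units apart, replicate 2 minus replicate 1. At 50 to 55% GC this gap was -0.11 in the median, with no spread given. Regardless of sign, the median day 4 gap of all tested genes was 1.07. Whether base composition had a part in the Tbx3 gap was not tested.

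The gap at day 4 lay mostly in 1 of the 2 Tbx3 rows. NM_011535, with the additional exon, had 0.180 FPKM (0 to 0.436, about 2 fragments) in day 4 replicate 1 and 23.1 FPKM (20.5 to 25.8, about 306 fragments) in replicate 2. NM_198052, without it, had 11.7 FPKM (10.2 to 13.2) and 21.9 FPKM (19.3 to 24.5). The row with the exon thus made 1.52% of Tbx3 in day 4 replicate 1 and 51.4% in replicate 2. At day 6 it made 45.5 and 51.9%, at 13.3 and 15.2 FPKM. In 3 libraries the rows were close to equal, and day 4 replicate 1 stood apart. Reads in shared exons cannot tell these rows apart, and whether the exon or the differing start set the split was not tested. The antisense transcript Tbx3os1 overlaps the 5′ end of Tbx3. It was at 0 in each day 4 library and given as 4.27 and 0.347 FPKM at day 6, and whether the quantification used strand was not given in the sources used here. Signal there cannot be assigned to 1 of the 2 genes.

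**Figure D2:**
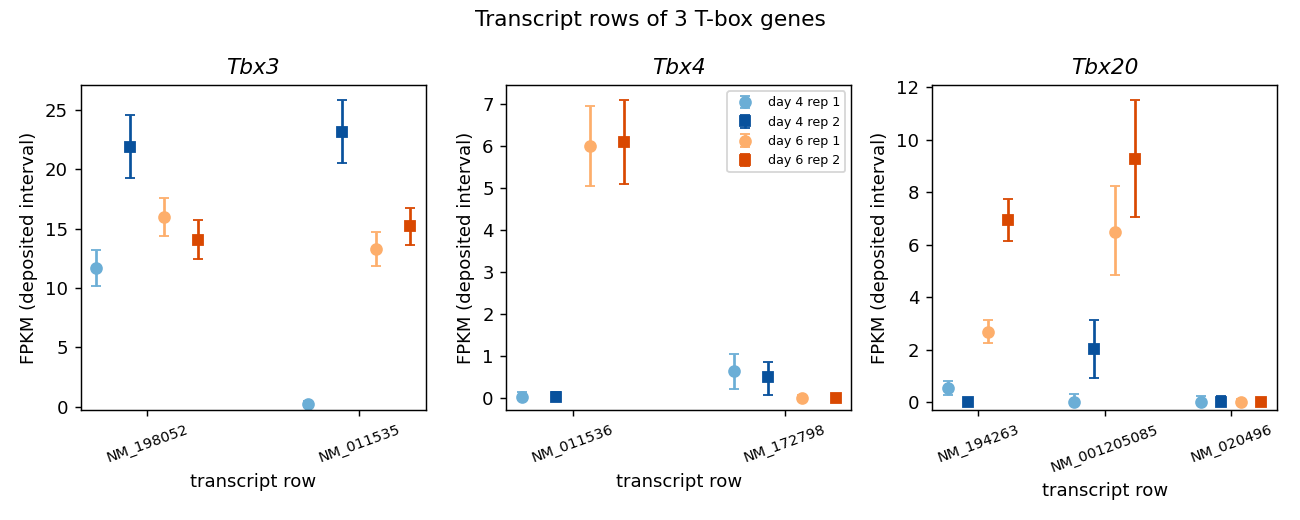
FPKM of each transcript row of Tbx3, Tbx4 and Tbx20 in the 4 libraries (colours and symbols by library, bars from the deposited lower to upper bound). NM_011535 of Tbx3 is near 0 in day 4 replicate 1 and between 13.3 and 23.1 FPKM in the other 3 libraries, and for Tbx4 the row above 0.1 FPKM is NM_172798 at day 4 and NM_011536 at day 6.

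Tbx5 was low throughout, at 0.413 FPKM (0.149 to 0.645) and 0.0523 FPKM (0 to 0.150) at day 4 and at 0.266 FPKM (0.102 to 0.409) and 0.821 FPKM (0.525 to 1.11) at day 6. The days overlapped, and the day 4 replicate 1 interval overlapped those of both day 6 libraries. With a mean of 0.388 FPKM it was the 1 gene of the 6 that did not pass the filter of 1 FPKM. Its neighbour Rbm19, an RNA-binding protein gene, measured 26.6 and 22.4 FPKM at day 4 against 14.7 and 11.4 FPKM at day 6 (log2 difference -0.87, standard error 0.44, limma, adjusted p = 0.409).

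The order of the 6 levels differed between the days. At day 4 Tbx3 was followed at a distance, its level being 18.9 and 22.1 times that of the next gene, and the other 5, whose order was not the same in the 2 libraries, were all at or under 2.03 FPKM. At day 6 replicate 1 the order was Tbx3, Pitx1, Tbx20, Tbx4, Tbx2 and Tbx5. In replicate 2 Pitx1 was above Tbx3 and Tbx2 above Tbx4. Over the 2 day 6 libraries the means were 35.4 ± 11.4 FPKM for Pitx1, 29.2 ± 0.0211 for Tbx3, 12.7 ± 4.96 for Tbx20, 8.61 ± 6.28 for Tbx2, 6.04 ± 0.0653 for Tbx4 and 0.543 ± 0.392 for Tbx5 (SD, n = 2). The order of Pitx1 and Tbx3, and that of Tbx2 and Tbx4, thus differed between the 2 libraries. Tbx20 was above Tbx2 in each, and Tbx5 lay under all of them in each. Among the day 6 libraries Pitx1, Tbx2, Tbx5 and Tbx20 were higher in replicate 2, at 1.59, 3.13, 3.09 and 1.76 times their replicate 1 level, whereas Tbx3 and Tbx4 had ratios of 0.999 and 1.02. Summed markers of endothelium and blood were also higher in that library (190 FPKM in replicate 1 and 740 FPKM in replicate 2). The globin genes Hba-x (107 and 456 FPKM) and Hbb-bh1 (71.3 and 254 FPKM) made most of this sum. Higher there too were sums for fibroblasts (129 and 245 FPKM), extraembryonic endoderm (39.5 and 60.6 FPKM) and cardiomyocytes (19.1 and 22.9 FPKM). The cardiomyocyte sum was higher through Tnni1 (6.50 and 14.1 FPKM). Tnnt2, Actc1, Myl4 and Nkx2-5, the rest of its tested markers, were lower in replicate 2. Trophoblast (2239 and 1592 FPKM) and neural (32.3 and 13.4 FPKM) sums were lower. Most of the trophoblast sum was Krt8 (1803 and 993 FPKM). Of its other tested markers, Krt7 and Eomes were also lower in replicate 2, while Cdx2, Tfap2c, Plac1, Hand1 and Ascl2 were higher. The part of these cell types in the gap between the day 6 libraries was not tested.

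Set among all 17 T-box genes with a row, the make-up of T-box transcripts differed between the days. T and Eomes together held 86.8 and 84.9% of the summed T-box FPKM at day 4 and 19.1 and 16.3% at day 6. The 5 later genes held 6.38 and 13.4% at day 4 and 66.6 and 74.0% at day 6. Tbx3 was the largest single share at day 6, at 39.9 and 33.1%. Tbx20 held 12.5 and 18.3% and T held 14.2 and 12.4%, so that T was second in replicate 1 and Tbx20 in replicate 2. A share depends on both parts: the summed FPKM of all T-box genes was 213 and 361 at day 4 and 73.4 and 88.4 at day 6, while that of the 5 later genes was 13.6 and 48.4 at day 4 and 48.9 and 65.4 at day 6. Tbx3 makes most of the day 4 replicate 2 sum, which nearly reached that of day 6 replicate 1.

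**Figure D3:**
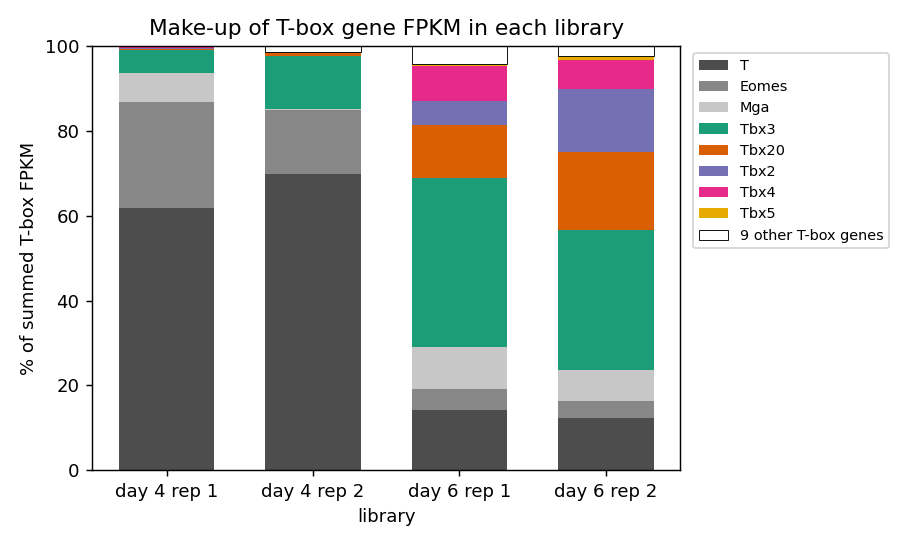
Stacked bars of the percentage of summed T-box FPKM held by each gene in each library (grey, T, Eomes and Mga; colours, the 5 later T-box genes; white, 9 other T-box genes). T and Eomes fill 84.9 to 86.8% of the day 4 bars and 16.3 to 19.1% of the day 6 bars.

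Of the 12 other T-box genes, 4 had a mean of at least 1 FPKM, and of these 0 passed at an adjusted p over the whole table (limma, smallest adjusted p = 0.267). The limma test called 0 of 11716 genes (0% of those tested), with 1793 at an unadjusted p under 0.05. T measured 131 and 252 FPKM at day 4 against 10.4 and 10.97 FPKM at day 6, with a log2 difference of -3.97 and a standard error of 0.53 (limma, adjusted p = 0.267). Eomes measured 53.4 and 54.96 FPKM against 3.65 and 3.43 FPKM, with a difference of -3.60 and a standard error of 0.41 (limma, adjusted p = 0.267). Both were lower in each day 6 library than in each day 4 library. Calls depended on the day 4 pair: without day 4 replicate 1 limma called 7837 genes and without replicate 2 it called 6081, the lone library then being assumed to vary as the day 6 pair does. Over 14 alternative settings of the fit (named at the end), the T difference ranged from -4.61 to -3.50 and that of Eomes from -4.23 to -3.51.

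The remaining T-box genes were low or uneven. Tbx6, a factor of presomitic mesoderm, was listed at 0 in day 4 replicate 1 and given as 4.46 FPKM in replicate 2, and at day 6 it measured 0.775 and 1.11 FPKM. Mga, which pairs a T-box with a Max-binding domain, measured 14.2 and 1.08 FPKM at day 4 against 7.29 and 6.49 FPKM at day 6. Both changed sign over the alternative settings, with log2 differences of -1.50 to 0.95 for Tbx6 and -0.95 to 1.92 for Mga. Tbx15, a factor of limb and skin mesenchyme, measured 0.229 and 0.116 FPKM at day 4 against 2.10 and 0.709 FPKM at day 6. Tbx1, of the pharyngeal region, and Tbr1, of cortical neurons, were listed at 0 at day 4 and were at or under 0.212 FPKM at day 6. These 3 were the other T-box genes that were higher at day 6 without overlap, and all of them lie under the filter. Tbx18 and Tbx21 did not exceed 0.331 FPKM in any library, and Tbx10, Tbx19 and Tbx22 were listed at 0 in all 4.

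Genes that act with or around these factors were taken from 7 lists, none of whose members passed over all genes tested. The counts without overlap below stand beside 41.6% higher and 11.5% lower over all genes tested, or 20.3 and 26.4% after median centring, and nothing particular to a list is read from them. Of 7 tested heart partner factors, 5 lay higher at day 6 with no overlap and 1 (Srf) lower (71.4% higher, against 41.6% of all genes), with a median log2 difference of 1.87 beside 0.51 for all genes. Hand2, a bHLH factor of heart and limb, measured 1.60 and 1.05 FPKM at day 4 against 16.3 and 47.9 FPKM at day 6 (limma, adjusted p = 0.267). Smarcd3, a cardiac chromatin remodelling subunit, measured 0.997 and 2.40 FPKM against 9.24 and 15.6 FPKM, and Gata6 measured 2.12 and 3.65 FPKM against 10.1 and 16.4 FPKM (limma, adjusted p = 0.267 and 0.280). Nkx2-5, the homeodomain partner of Tbx5 and Tbx20 in the heart, overlapped between the days, at 0.429 and 3.05 FPKM and at 1.91 and 1.011 FPKM. Over the alternative settings the log2 differences of Hand2, Smarcd3 and Gata6 ranged from 2.91 to 4.41, 1.695 to 2.87 and 1.24 to 2.19.

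Heart genes that T-box factors regulate were mostly near the floor of the measurement. Only 2 of 11, Gja1 and Mycn, had a mean of at least 1 FPKM. Nppa, a target that Tbx5 activates and Tbx2 and Tbx3 repress, was at or under 0.299 FPKM in every library, and Bmp10 was listed at 0 in all 4. Mycn, which Tbx2 and Tbx20 are known to affect in the heart, measured 33.5 and 133 FPKM at day 4 against 18.7 and 21.4 FPKM at day 6 (log2 difference -1.70, standard error 0.79, limma, adjusted p = 0.386). Gja1 (connexin 43) measured 133 and 7.66 FPKM at day 4 against 49.1 and 48.7 FPKM at day 6, so that its day 6 values lay between those of day 4 as for Tbx3. The Mycn difference ranged from -2.67 to -0.72 over the alternative settings, while that of Gja1 changed sign, from -1.43 to 2.53. Cardiomyocyte markers summed to 12.7 and 7.32 FPKM at day 4 and to 19.1 and 22.9 FPKM at day 6, and their members differed in direction. Of the 5 tested, Tnni1 and Myl4 were higher with no overlap and Actc1 lower, at 3.80 and 1.61 FPKM against 1.14 and 1.03 FPKM. Myh6, a heart myosin, measured 2.04 and 1.32 FPKM at day 4 against 0.155 and 0.157 FPKM at day 6. Myl7, an atrial myosin light chain, measured 0.902 and 0.928 FPKM in the day 4 libraries, 0.232 FPKM in day 6 replicate 1 and 0 in replicate 2.

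Of 11 tested limb bud and hindlimb genes, 5 lay higher with no overlap and 3 lower, at a median of 0.49. The 45.5% higher is close to the 41.6% of all genes. The 3 with the smallest p were all higher. Hoxc10 and Hoxc9, posterior Hox genes, were low at day 4. Hoxc10 measured 0.111 and 0.226 FPKM at day 4 against 6.36 and 7.74 FPKM at day 6. Hoxc9 measured 0.375 and 0.381 FPKM against 3.35 and 4.64 FPKM. Prrx2, a homeodomain factor of limb and lateral mesoderm, measured 1.21 and 2.87 FPKM against 13.0 and 18.7 FPKM (limma, adjusted p = 0.267 for each of the 3). Each of them passed without day 4 replicate 1 and also without replicate 2. Fgf8 and Fgf4, limb ridge signals that the primitive streak and pluripotent cells also express, and Sall4 were the 3 lower genes. Shh, the posterior limb signal, was listed at 0 at day 4 and did not exceed 0.138 FPKM at day 6.

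Of 10 tested allantois and lateral plate genes, 8 lay higher with no overlap (80%, against 41.6% of all genes) and 0 lower, at a median of 1.92. Postn, which encodes the matrix protein periostin, was at 0 in each day 4 library and given as 20.5 and 37.6 FPKM at day 6. Twist2 measured 1.35 and 1.205 FPKM against 14.6 and 16.6 FPKM, and Snai2 measured 0.105 and 0.642 FPKM against 4.99 and 13.2 FPKM, both being transcription factors of mesenchymal cells. The adjusted p was 0.267 for each (limma). Log2 differences of Postn, Twist2 and Snai2 over the alternative settings ranged from 4.22 to 8.12, 2.23 to 3.51 and 1.95 to 4.40. Vcam1, an adhesion molecule of the allantois, stayed at or under 0.186 FPKM. Most fibroblast markers were higher too. Thy1 overlapped between the days, and Fap was at 0.307 FPKM in day 4 replicate 1 and at 0 in both day 6 libraries. In that list 4 of 5 tested members were higher without overlap (41.6% of all genes were) and 0 lower, and the summed level of its 8 genes was 12.04 and 8.63 FPKM at day 4 but 129 and 245 FPKM at day 6, with Dcn and Lum listed at 0 at day 4. Markers of trophoblast summed to 607 and 1268 FPKM at day 4 and to 2239 and 1592 FPKM at day 6. Most of each sum was Krt8, at 436 and 1067 FPKM against 1803 and 993 FPKM, and its days overlapped. Of the 8 tested, 5 were higher and 1 (Eomes) lower with no overlap, and Elf5 and Plac1 were listed at 0 at day 4. Those of extraembryonic endoderm summed to 9.38 and 5.50 FPKM and to 39.5 and 60.6 FPKM, with 4 of 5 higher and with Afp listed at 0 in all libraries. All 7 tested markers of endothelium and blood were higher, and their sums were 5.10 and 1.42 FPKM at day 4. Neural markers summed to 150 and 96.4 FPKM and to 32.3 and 13.4 FPKM, with 1 of 3 (Nes) lower. The part of these cell types in the values of the 6 genes was not tested.

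Tbx3 is linked to naive pluripotency, and that list of 8 tested genes was mixed: 5 lay higher at day 6 with no overlap and 2 (Klf5 and Nanog) lower, at a median of 0.82, where 62.5% higher stands against 41.6% of all genes. Nanog measured 83.8 and 13.7 FPKM at day 4 against 5.87 and 4.08 FPKM at day 6. Klf5 measured 164 and 418 FPKM against 108 and 85.2 FPKM, and Esrrb measured 3.0 and 1.13 FPKM against 5.11 and 4.35 FPKM (limma, adjusted p = 0.326, 0.376 and 0.414). Klf5 and Tbx3 were both highest in day 4 replicate 2, and Nanog was highest in day 4 replicate 1. Over the alternative settings the log2 differences of Nanog, Klf5 and Esrrb ranged from -3.84 to -1.315, -2.12 to -0.77 and 0.25 to 1.43.

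Tbx2 and Tbx3 are known repressors of cell cycle inhibitor genes. Of 5 tested inhibitors, 3 lay higher with no overlap and 1 (Cdkn1a) lower, at a median of 0.90, where 60% higher stands against 41.6% of all genes. Cdkn1c, an imprinted inhibitor, measured 84.3 and 52.2 FPKM at day 4 against 234 and 326 FPKM at day 6 (limma, adjusted p = 0.270). Cdkn2a, which Tbx2 and Tbx3 repress in cultured fibroblasts, measured 1.77 and 9.22 FPKM against 49.9 and 17.2 FPKM (limma, adjusted p = 0.319), and Cdkn1b measured 7.48 and 21.0 FPKM against 23.5 and 25.6 FPKM (limma, adjusted p = 0.510). At day 6 Cdkn2a was higher in replicate 1 and Tbx2 in replicate 2. Both genes were higher in each day 6 library than in each day 4 library, and a link between them was not tested. Log2 differences of Cdkn1c, Cdkn2a and Cdkn1b over the alternative settings ranged from 1.41 to 2.38, 1.57 to 3.46 and 0.22 to 1.59.

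Of 11 tested partners and cofactors, 2 were higher and 2 lower without overlap, with a median of -0.15. The 18.2% higher was under the 41.6% of all genes. Sall4, a zinc finger factor that acts with Tbx5 in the heart and limb, measured 46.5 and 66.7 FPKM at day 4 against 21.8 and 21.4 FPKM at day 6 (limma, adjusted p = 0.309). Pdlim7, which binds Tbx5 in the cytoplasm, measured 198 and 654 FPKM against 184 and 116 FPKM, and Tead1 measured 38.1 and 13.9 FPKM against 39.8 and 46.5 FPKM (limma, adjusted p = 0.465 and 0.531). Over the alternative settings the log2 differences of Sall4, Pdlim7 and Tead1 ranged from -1.95 to -0.78, -2.16 to -0.43 and -0.04 to 1.57.

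**Figure D4:**
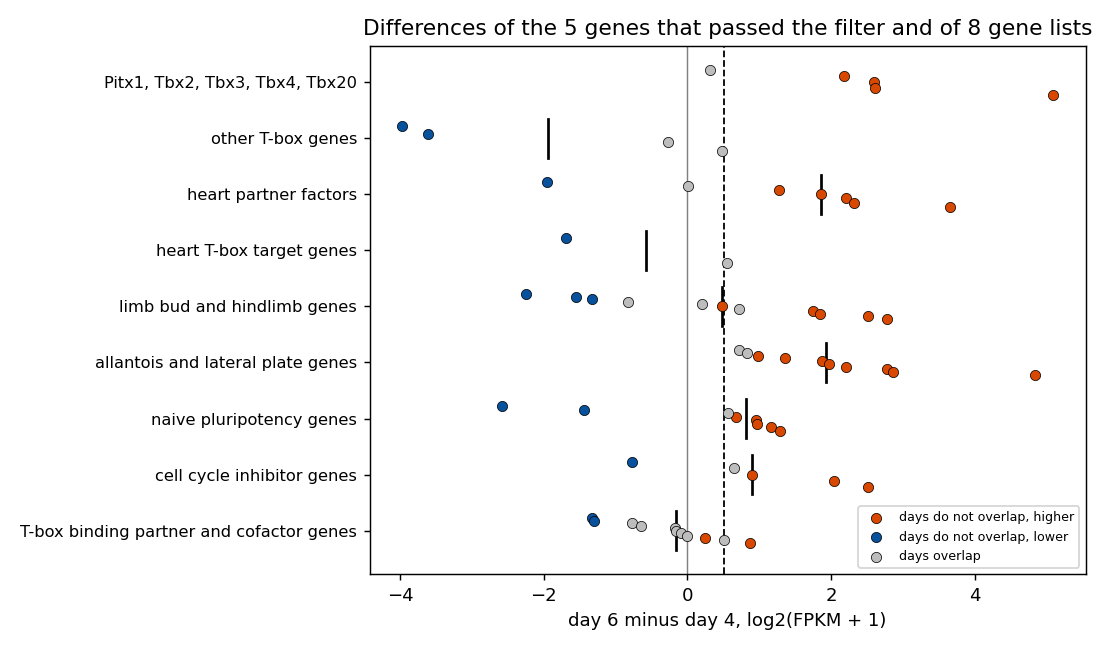
Day 6 minus day 4 difference on the log2(FPKM + 1) scale for each tested gene of the set (top) and of 8 gene lists, coloured by whether the 2 days overlap (orange, higher at day 6; blue, lower; grey, overlap). Short bars are list medians and the dashed line is the median of all genes tested, 0.51, and T and Eomes lie at the far left at -3.97 and -3.60.

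The genes whose course over the 4 libraries was most like that of each member were found from the root mean square difference of log2(FPKM + 1) after centring each gene on its mean. For Pitx1 they were Plac1 (a placental gene), Igfbp5 (an IGF-binding protein) and Postn, with distances of 0.095, 0.11 and 0.15 log2 units. For Tbx2 they were Snai2, Crb2 and Dlk1, with distances of 0.11, 0.21 and 0.23. Tbx20 ranked 5 in nearness to Tbx2, whose values are thus closer to those of Tbx20 (0.27) than to those of its neighbour Tbx4 (0.61). For Tbx20 they were Hlx, Pdgfrb and Prrx2 (0.097, 0.11 and 0.12), for Tbx4 they were Yif1a, uc008htr.1 and Fcor (0.042, 0.045 and 0.053), and for Tbx3 they were Foxo3, Ptprf and Fcsk (0.012, 0.015 and 0.028). With 4 libraries many genes share a course, and the distances describe these libraries only.

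The nearest named genes of the other members in the tables are given for comparison. Catsper3, a sperm ion channel gene 16054 bases from Pitx1, was listed at 0 throughout. Macroh2a1, a histone variant gene on the other side, measured 43.3 and 56.5 FPKM at day 4 against 66.4 and 60.7 FPKM at day 6 (log2 difference 0.35, standard error 0.45, limma, adjusted p = 0.719). Dpy19l2, a neighbour of Tbx20 on 1 side, was listed at 0 throughout, and Herpud2 on the other measured 8.69 and 15.1 FPKM against 17.5 and 14.0 FPKM (log2 difference 0.42, standard error 0.49, limma, adjusted p = 0.696). Next to Tbx3, Gm16064 was listed at 0 throughout, and Tbx3os2 did not exceed 0.333 FPKM. Gm20759, beyond Tbx4, was also listed at 0 in all 4 libraries.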

How the data were processed

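Poly(A) RNA was sequenced from 4 libraries with a stranded kit, per the labels' protocols. CASAVA and TopHat2 version 2.0.11 with build mm10 were used, per the submitters' processing notes. The quantifier was not given in the sources used here. The values are FPKM per transcript with lower and upper bounds, as deposited by the authors (35656 rows per library). A deposited coverage signal was used only to describe depth. The tables hold no counts, so fragments were estimated from interval width, with each side read as 2 Poisson standard deviations, which covers counting error only.

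Rows were named from RefSeq (GRCm38.p6) and GENCODE M21 (95.5% named) and summed per symbol. Genes averaging 1 FPKM or more were tested on log2(FPKM + 1), with a pseudocount of 1, which understates changes of low genes (limma version 3.58.1 in R version 4.3.3, empirical Bayes with trend, two-sided, Benjamini-Hochberg over all genes, threshold 0.05, no replicate block). The step was tested on simulated data, with the same spread of a gene on both days and no gap that moved with base composition. That setting differs from the day 4 pair here, so the simulation cannot tell how calls behave under that gap. An exact permutation test of 2 against 2 cannot go below p = 0.333 and was not used.

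The members and lists were chosen with earlier results of these data known. Named genes are the 6 members, other T-box genes and Pitx3, the 3 members of each other list with the smallest p, the nearest named genes and opposite-strand transcripts starting within 5 kb, and the 3 genes most like each member. Genes named beyond these (Srf, Nkx2-5, Nppa, Bmp10, Shh, Vcam1, Fgf8, Fgf4, Myh6, Myl7, Tnni1, Tnnt2, Myl4, Actc1, Dcn, Lum, Thy1, Fap, Krt7, Krt8, Cdx2, Tfap2c, Hand1, Ascl2, Hba-x, Hbb-bh1, Elf5, Afp, Nes and Cdkn1a) were chosen after their values were seen. A gene that the rule also names is not reported here.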

Additional observations from a re-analysis of the deposited data

How the results depend on the processing

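The limma count of genes called between the days was 0 under another pseudocount (0.1 or 0.5 FPKM), another filter (0.3 FPKM or none), median centring, quantile normalisation, GC correction, the highest row per gene, and rows of OK status only. It ranged from 0 to 7837 with 1 library left out: 7837 and 6081 without day 4 replicate 1 or 2, and 0 without either day 6 library. A fit with the replicate block called 67 genes, 54 of them higher. No label ties equal numbers to a shared culture, and the deviations of day 4 replicate 1 and day 6 replicate 1 correlated at -0.0904 over genes. That value cannot tell whether a culture or batch was shared, because the day 4 gap moved with base composition. The count of 4 members higher without overlap was 4 or 5 with 1 library left out and 4 under every other setting run (3 scalings, 5 members each, because Tbx5 lies under the filter; the highest row; OK status). That of 3 other T-box genes was 3 or 4 with 1 library left out and 3 for the other 2 settings. The 3 scalings were not run for it, because those genes lie under the filter. Of 68 alternative values of the members' log2 differences, 52 stayed within 1 SD between replicates. Those of Pitx1, Tbx2, Tbx4 and Tbx20 were above 0 in every setting run, with 4.46 to 7.99, 1.80 to 4.13, 1.42 to 3.22 and 1.92 to 3.37. Tbx3 changed sign, between -0.61 and 1.23, and Tbx5 lay between 0.05 and 1.05. Depth limits the rows of Tbx4 and Tbx20 at day 4, and the cause of these dependences was not tested.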
